A study of Mus musculus with 24 samples.

Results

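Removal of either inhibitor from mESCs in 2i + LIF was followed within 12 h by a rise of the retinoic acid receptor genes *Rarg* and *Rara* and a fall of *Rarb* on both soft and stiff substrates, whereas *Dhrs3* rose after removal of CHIRON and responded differently to the 2 removals in the test of that difference. The exons of *Rarb* overlap those of *Top2b*, which also fell after PD03 removal. The part of *Top2b* in the counts of *Rarb* was not tested. The genes described are 9 genes of the retinoic acid pathway, *Rara*, *Rarb*, *Rarg*, *Rxra*, *Cyp26a1*, *Crabp1*, *Crabp2*, *Dhrs3* and *Stra6*. They were chosen with earlier results of these data known, although no measured value entered the rule, which took them by their symbols. They come from the 35022 genes listed for the experiment on PD03 removal and the 48709 listed for the experiment on CHIRON removal. All 9 had a row in both experiments. After the filter on low counts, 8 of them were tested in the former (all except *Cyp26a1*) and 7 in the latter (all except *Cyp26a1* and *Stra6*). They lie apart in the genome (GRCm38, GENCODE M21), with the receptor genes at chr11:98927818-98974942 (*Rara*, plus strand), chr14:16430839-16819156 (*Rarb*, minus strand), chr15:102234938-102257517 (*Rarg*, minus strand) and chr2:27676440-27762957 (*Rxra*, plus strand). *Crabp1* (chr9:54764748-54773110) and *Stra6* (chr9:58063788-58153996) share a chromosome, and *Crabp2* (chr3:87948666-87953376), *Dhrs3* (chr4:144892827-144928209) and *Cyp26a1* (chr19:37697798-37701536) are on others, all on the plus strand.

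E14 mESCs, a mouse embryonic stem cell line of the genotype given as 129m wt, were kept for 12 h on fibronectin-coated StemBond hydrogels in 2i + LIF, a medium of LIF with 1 µM PD03 and 3 µM CHIRON. PD03 inhibits MEK and so blocks ERK signalling, and CHIRON inhibits GSK3 and so stabilises β-catenin. In the first experiment PD03 was taken away and cells stayed in CHIRON + LIF, and in the second CHIRON was taken away and cells stayed in PD03 + LIF, on soft and on stiff hydrogels in each. RNA was taken at 0 h (still in 2i + LIF), 2 h and 12 h, which gave 6 groups of 2 replicate libraries in each experiment and 24 libraries in all. No group was kept in 2i + LIF to 2 h or 12 h. Within an experiment, loss of the inhibitor and the further hours in culture therefore cannot be told apart. One library of CHIRON removal (stiff, 2 h, replicate 1) held 171333 counts and was left out, so that group is a single library whose spread was assumed to be that of the other groups. The other 23 libraries held between 16222196 and 31111260 counts. Every group was the same cell line, and the labels do not say whether the replicates of a group were separate cultures, although the study describes repeated experiments and, for its error bars, independent replicates, so p-values measure the spread between these libraries only, which may be technical.

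Cells take up retinol, which in some tissues enters through STRA6, and oxidise it to retinaldehyde and then to retinoic acid. DHRS3 reduces retinaldehyde back to retinol, CRABP1 and CRABP2 bind retinoic acid in the cytoplasm, and CYP26A1 breaks it down. The receptors RARα, RARβ and RARγ bind DNA as partners of an RXR such as RXRα and switch genes on when retinoic acid is bound. In mESCs added retinoic acid is a classic signal to leave pluripotency, and *Rarb* and *Cyp26a1* are among its best known direct targets.

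The promoters of *Rarb* and *Cyp26a1* are shown because they were the ones, among the 18 RefSeq promoter windows of 8 of the 9 genes (GRCm38.p6, 250 bases before to 50 after a transcript's start), with the element that RAR and RXR are known to bind. It was searched on both strands as a direct repeat of any of the hexamers AGGTCA and its variant AGTTCA or else GGGTCA and the variant GGTTCA with 5 bases between them. The 250 bases before the start are given on the strand of the gene, with the hexamers in capitals, at chr14:16575477-16575726 (minus strand, a start inside the annotated *Rarb* gene) and chr19:37697558-37697807 (plus strand). *Crabp2* had no entry in that table.
Rarb: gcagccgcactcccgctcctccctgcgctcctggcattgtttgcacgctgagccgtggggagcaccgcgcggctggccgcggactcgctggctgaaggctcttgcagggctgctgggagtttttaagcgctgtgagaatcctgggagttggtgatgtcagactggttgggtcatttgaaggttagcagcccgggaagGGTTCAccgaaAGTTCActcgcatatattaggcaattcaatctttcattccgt
Cyp26a1: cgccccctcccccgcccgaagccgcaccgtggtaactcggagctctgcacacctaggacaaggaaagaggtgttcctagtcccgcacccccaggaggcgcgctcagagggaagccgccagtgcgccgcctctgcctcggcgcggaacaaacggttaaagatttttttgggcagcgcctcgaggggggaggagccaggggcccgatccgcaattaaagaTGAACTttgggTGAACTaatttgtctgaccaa
The repeat began at -53 from the start of *Rarb* and at -32 from that of *Cyp26a1*, where it ran on the opposite strand. It occurred in 32 of 32851 mouse promoter windows (0.0974%), which belonged to 31 genes. The same hexamers with 2 bases between them (0.268% of windows) or 1 base between them (0.222%) were in none of the 18 windows. CTTTGA or CTTTGT, the core that TCF and LEF factors bind, was in 6 of the 18 windows, of *Dhrs3*, *Stra6* and *Rara*, and in 31.2% of all windows. Such matches are letters in a window and were not measured as bound sites.

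Levels are given as normalised CPM, a gene's counts scaled to the TMM-normalised total of protein-coding counts of its library, and changes as log2 fold changes from the edgeR fit with their standard error (SE). A gene was called changed when its p, adjusted over all genes tested by the Benjamini-Hochberg method, was below 0.05. Per kilobase of exon, *Rarg* stood highest of the 9 genes in both experiments, with a mean of 37.6 normalised CPM per kb over the 12 libraries of PD03 removal and 38.0 over the 11 of CHIRON removal. *Rxra* followed in the first experiment (10.2) and *Rara* in the second (17.6), and *Cyp26a1* (0.180 and 0.116) and *Stra6* (0.113 and 0.0331) stood lowest in both.

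**Figure D1:**
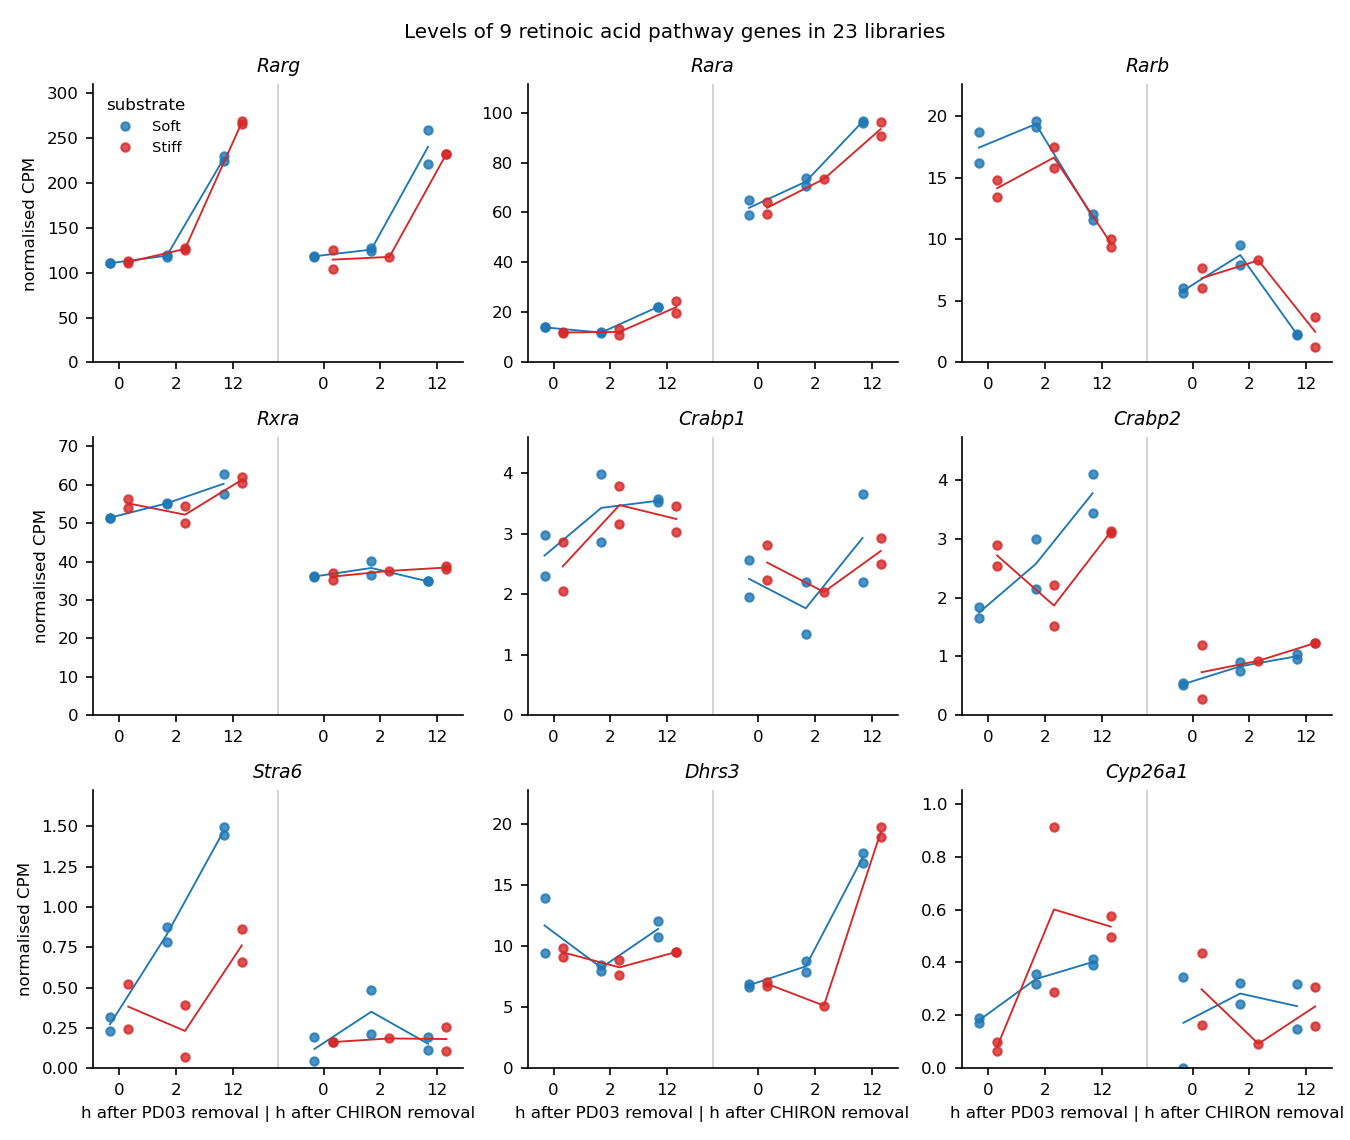
Normalised CPM of the 9 genes against time after removal of PD03 (left of each panel) or of CHIRON (right), with the times evenly spaced, 1 point per library, lines through the group means, and soft substrates in blue and stiff in red. *Rarg* at 12 h lies between 221 and 269 in both experiments, above every library of 0 h and 2 h, and *Cyp26a1* stays below 1 throughout.

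At 12 h after removal of PD03, 5 of the 8 tested genes were higher on soft substrates and 1 was lower. Over all 13422 genes tested, 14.1% were called higher and 15.3% lower in that comparison. *Stra6*, among those 5 and in the medians below, passed the low-count filter only through libraries later than 0 h. On stiff substrates 2 were higher and 1 was lower, where 18.5% and 19.9% of all genes were called. *Rarg*, *Rara* and *Rarb* accounted for all 3 calls on stiff and were called in the same direction on soft. The median log2 fold change of the 8 genes was 0.55 on soft and 0.30 on stiff, beside -0.0013 and -0.0014 over all genes tested.

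At 12 h after removal of CHIRON, 3 of the 7 tested genes were higher on soft substrates (9.18% of all 14615 genes tested) and 1 was lower (8.63%). The same 4 genes were called on stiff substrates, again 3 higher (8.46% of all genes) and 1 lower (8.33%). They were *Rarg*, *Rara* and *Dhrs3*, which rose, and *Rarb*, which fell. The median of the 7 genes was 0.64 on soft and 0.59 on stiff, against -0.014 and -0.0085 over all genes.

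**Figure D2:**
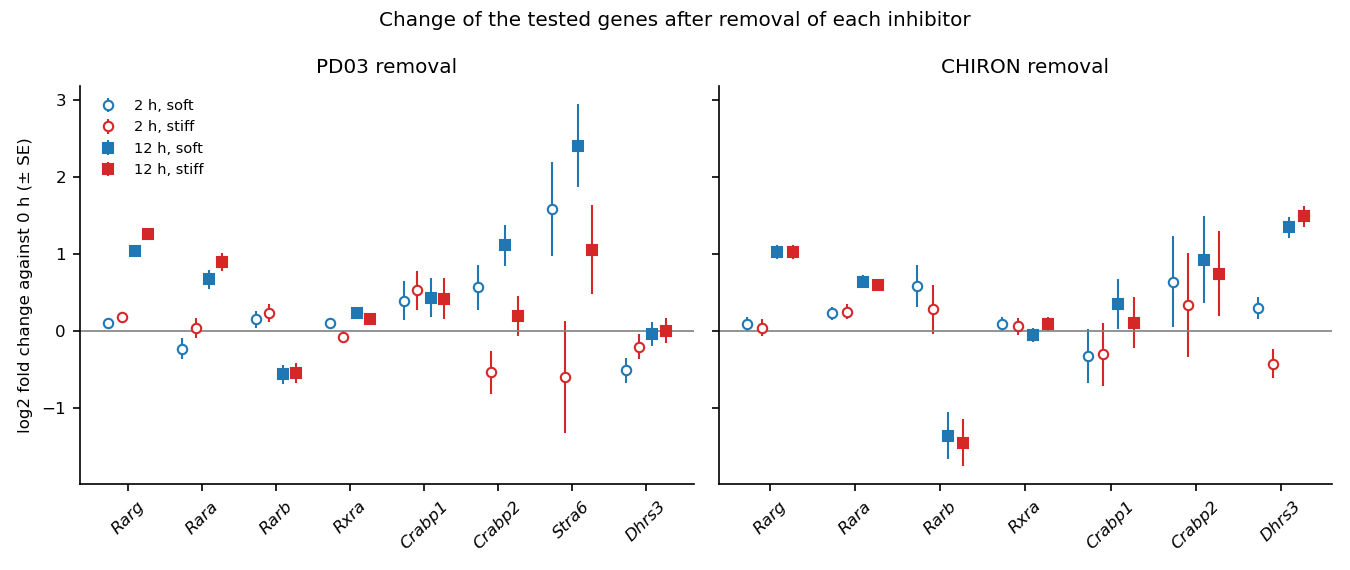
Log2 fold changes against 0 h (± SE) of the 8 genes tested after PD03 removal (left) and the 7 tested after CHIRON removal (right), with open circles for 2 h, filled squares for 12 h, blue for soft and red for stiff. At 12 h *Rarg* and *Rara* lie above 0 and *Rarb* below 0 in all 4 cases, and *Dhrs3* lies near 0 on the left and between 1.34 and 1.48 on the right.

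*Rarg* encodes RARγ, the receptor that was the most abundant of the 9 transcripts. After PD03 removal its replicates stood at 110.6 and 110.6 normalised CPM at 0 h, then 118 and 120.2 at 2 h, then 224 and 229.7 at 12 h on soft substrates. The stiff libraries held 113 and 111 at 0 h, then 125 and 128 at 2 h, then 266 and 269 at 12 h. The 12 h libraries therefore lay about a doubling above the rest, with no overlap, and those on stiff were the highest of all. The log2 fold change at 12 h was 1.04 ± 0.05 on soft (adjusted p = 9.3e-16) and 1.26 ± 0.05 on stiff (adjusted p = 4.5e-18).

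Between substrates, *Rarg* at 12 h was lower on soft than on stiff by a log2 difference of -0.24 ± 0.05 (adjusted p = 0.0063). It was the single call among the 8 genes in that comparison, in which 0.767% of all genes were called. With any 1 of its 4 libraries left out the difference stayed between -0.25 and -0.22, and the adjusted p rose to between 0.053 and 0.11. The difference in response between substrates, -0.22 ± 0.07, did not pass (adjusted p = 0.52). At 2 h on stiff the rise of *Rarg* was 0.18 ± 0.05 with an adjusted p of 0.043, which rose above 0.05, to at most 0.27, in 11 of the 12 fits that each left out 1 library, all but that without replicate 1 of soft 2 h.

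After CHIRON removal *Rarg* stood at 119 and 118 at 0 h, then 127 and 124 at 2 h, then 221 and 259.6 at 12 h on soft substrates. On stiff it stood at 125 and 104 at 0 h, then 118 in the single library of 2 h, then 232 and 232 at 12 h. Its level thus changed little by 2 h and was again about a doubling higher at 12 h. The log2 fold change at 12 h was 1.02 ± 0.09 on each substrate (adjusted p = 3.9e-07 on soft and 4.1e-07 on stiff). Compared between the removals, the rise differed by 0.01 ± 0.10 on soft (adjusted p = 0.96) and by 0.24 ± 0.10 on stiff (adjusted p = 0.092), neither of which passed.

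*Rara*, which encodes RARα, rose after both removals but from very different levels in the 2 experiments. After PD03 removal it stood at 14.03 and 14.01 normalised CPM at 0 h, then 12.12 and 11.8 at 2 h, then 22.2 and 22.3 at 12 h on soft. On stiff it stood at 12.3 and 11.7, then 13.4 and 10.9, then 24.6 and 19.7. All 4 libraries of 12 h were above all others. The log2 fold change at 12 h was 0.67 ± 0.12 on soft (adjusted p = 7.4e-05) and 0.89 ± 0.12 on stiff (adjusted p = 9.6e-07).

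After CHIRON removal the *Rara* values on soft substrates were 58.9 and 64.8 at 0 h, then 73.9 and 70.7 at 2 h, then 96.0 and 96.7 at 12 h. The stiff libraries held 59.5 and 64.3, then 73.4, then 90.6 and 96.1. The groups of each time did not overlap with those of another, with 2 h between 0 h and 12 h. At 2 h the rise of 0.22 ± 0.08 on soft and 0.25 ± 0.10 on stiff did not pass (adjusted p = 0.41 and 0.64), and at 12 h it was 0.64 ± 0.08 and 0.59 ± 0.08 (adjusted p = 2.1e-05 and 5.1e-05).

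At 0 h both experiments held the same medium, yet *Rara* was 5.59 times higher in the experiment on CHIRON removal than in that on PD03 removal. Of the 14763 genes fitted across both, 4.71% lay at least as far apart between the experiments at 0 h. *Rarg* differed by 1.23 times at 0 h, *Rxra* by 0.801, *Rarb* by 0.478 and *Crabp2* by 0.343, and the median absolute log2 difference over all genes was 0.69. *Top2b*, whose exons overlap those of *Rarb*, differed by 0.385 times at 0 h. The experiment and anything else that differed between its libraries and those of the other cannot be told apart, so levels were compared within an experiment and only responses were compared across.

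*Rarb*, the gene of RARβ and the one receptor gene here with the retinoic acid element shown above, moved the other way. After PD03 removal its libraries on soft held 18.7 and 16.2 normalised CPM at 0 h, then 19.1 and 19.6 at 2 h, then 11.6 and 12.0 at 12 h. On stiff they held 13.5 and 14.9, then 17.5 and 15.8, then 10.0 and 9.40. The 12 h libraries were the lowest on each substrate and the soft libraries were higher than the stiff ones of the same time. The fall at 12 h was -0.57 ± 0.12 on soft (adjusted p = 0.00054) and -0.55 ± 0.13 on stiff (adjusted p = 0.0012). The differences of soft from stiff were 0.30 ± 0.11, 0.22 ± 0.11 and 0.28 ± 0.13 at 0 h, 2 h and 12 h, with adjusted p of 0.55, 0.62 and 0.51, so none passed.

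*Rarb* also fell after CHIRON removal, from a lower level. On soft it stood at 5.66 and 6.03 at 0 h, then 7.92 and 9.54 at 2 h, then 2.25 and 2.30 at 12 h, and on stiff at 6.02 and 7.66, then 8.29, then 3.69 and 1.28. The 2 stiff libraries of 12 h, with 72 and 24 counts, thus lay far apart while both were below 0 h. The log2 fold change was -1.36 ± 0.31 on soft (adjusted p = 0.0045) and -1.45 ± 0.30 on stiff (adjusted p = 0.0027). Left out in turn, replicate 1 of stiff 12 h gave -2.41 (adjusted p = 0.00011) and replicate 2 gave -0.89 (adjusted p = 0.042).

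*Rarb* shares 1793 of its 5265 exon bases with *Top2b*, the gene of DNA topoisomerase IIβ on the opposite strand. Whether reads were counted by strand was not given, so reads of the pair may not have been told apart. After PD03 removal *Top2b* also fell, from 146 and 145 at 0 h to 118 and 113 at 12 h on soft and from 153 and 143 to 103 and 99.0 on stiff. Its log2 fold changes were -0.33 ± 0.05 (adjusted p = 2.5e-05) and -0.55 ± 0.05 (adjusted p = 4.4e-09). After CHIRON removal *Top2b* changed by 0.10 ± 0.12 and 0.02 ± 0.12 (adjusted p = 0.64 and 0.95) while *Rarb* fell. The part of *Top2b* in the counts of *Rarb* was not tested.

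**Figure D3:**
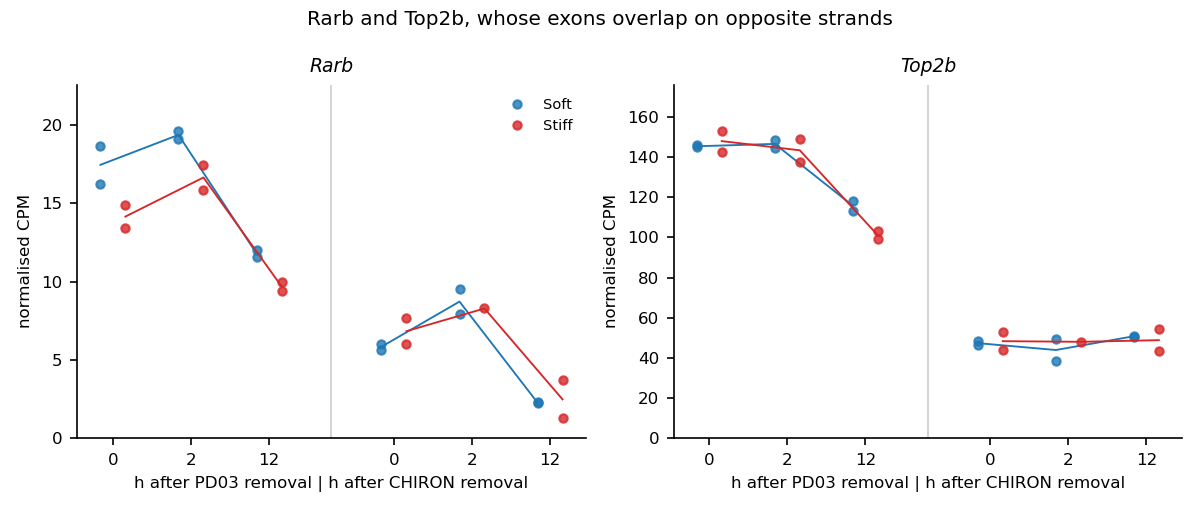
Normalised CPM per library of *Rarb* (left panel) and of *Top2b* (right panel), whose exons overlap on opposite strands, against time after removal of PD03 or of CHIRON, with soft in blue, stiff in red and lines through group means. Within the experiment on PD03 removal both genes are lowest at 12 h, and *Top2b* stays between 38.5 and 54.2 in the experiment on CHIRON removal, where *Rarb* falls.

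*Rxra* encodes the partner of the RARs and moved least of the receptors. After PD03 removal it stood at 51.4 and 51.4 normalised CPM at 0 h, then 55.0 and 55.3 at 2 h, then 57.6 and 62.8 at 12 h on soft. On stiff it stood at 56.3 and 54.0, then 54.5 and 49.9, then 60.5 and 62.0. The 12 h libraries were the highest on both substrates, by a small margin. The rise on soft, 0.23 ± 0.07, passed (adjusted p = 0.011), but with replicate 1 or 2 of soft 0 h or replicate 2 of soft 12 h left out the adjusted p was 0.055, 0.053 and 0.17. On stiff it was 0.15 ± 0.07 (adjusted p = 0.076). After CHIRON removal all 11 libraries lay between 34.8 and 40.3, and the 12 h values of -0.05 ± 0.09 and 0.09 ± 0.09 did not pass (adjusted p = 0.76 and 0.56).

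The binding protein genes were expressed at low levels. *Crabp2*, whose protein carries retinoic acid to the nucleus, had 32 and 26 counts at 0 h, then 42 and 27 at 2 h, then 50 and 63 at 12 h on soft substrates after PD03 removal. As normalised CPM these were 1.84 and 1.65, 2.99 and 2.15, and 3.44 and 4.10, so 12 h lay above 0 h without overlap. The rise of 1.11 ± 0.27 passed (adjusted p = 0.0023). On stiff the values were 2.53 and 2.89 at 0 h, then 2.22 and 1.51 at 2 h, then 3.10 and 3.13 at 12 h, a change of 0.19 ± 0.26 that did not pass (adjusted p = 0.61). The responses on soft and stiff differed by 0.92 ± 0.37, which did not pass over all genes (adjusted p = 0.66). After CHIRON removal it had between 5 and 28 counts per library, and its 12 h changes of 0.92 ± 0.57 and 0.74 ± 0.55 did not pass (adjusted p = 0.30 and 0.41).

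*Crabp1*, a related carrier of retinoic acid in the cytoplasm, held between 22 and 59 counts in all 23 libraries. In normalised CPM it ranged from 2.06 to 3.99 after PD03 removal and from 1.34 to 3.65 after CHIRON removal, with neighbouring groups mostly overlapping. At 12 h its changes were 0.43 ± 0.25 and 0.42 ± 0.26 after PD03 removal (adjusted p = 0.21 and 0.22) and 0.34 ± 0.33 and 0.11 ± 0.33 after CHIRON removal (adjusted p = 0.53 and 0.87). None of these passed.

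*Stra6*, the retinol receptor gene whose name records that retinoic acid stimulates it, was near the limit of detection. On soft substrates it had 4 and 5 counts at 0 h, then 11 and 11 at 2 h, then 21 and 23 at 12 h after PD03 removal. The stiff libraries had 8 and 5, then 6 and 1, then 12 and 8. As normalised CPM, 12 h lay above 0 h without overlap on both substrates, from 1.44 to 1.498 against 0.230 to 0.317 on soft and from 0.660 to 0.864 against 0.245 to 0.520 on stiff. The 12 h change was 2.40 ± 0.54 on soft (adjusted p = 0.0011) and 1.05 ± 0.58 on stiff (adjusted p = 0.16), and their difference of 1.35 ± 0.83 did not pass (adjusted p = 0.81). At 2 h on soft it was 1.58 ± 0.61 (adjusted p = 0.26). *Stra6* passed the low-count filter only through libraries later than 0 h, so its call on soft is not independent of the rise. DESeq2 gave no adjusted p for the 12 h change on soft. After CHIRON removal its 11 libraries had between 1 and 8 counts and it was not tested.

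*Dhrs3* encodes the reductase that lowers the supply of retinaldehyde, and it was called as different between the 2 removals. After CHIRON removal it stood at 6.94 and 6.68 normalised CPM at 0 h, then 8.83 and 7.88 at 2 h, then 16.9 and 17.7 at 12 h on soft. On stiff it stood at 6.78 and 7.06, then 5.14, then 19.8 and 18.9. All 4 libraries of 12 h lay far above the others. The log2 fold change at 12 h was 1.34 ± 0.14 on soft (adjusted p = 1.7e-06) and 1.48 ± 0.14 on stiff (adjusted p = 6e-07). At 2 h soft was above the single stiff library by 0.70 ± 0.19, which did not pass (adjusted p = 0.80).

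After PD03 removal *Dhrs3* held 13.97 and 9.45 at 0 h, then 7.98 and 8.51 at 2 h, then 10.8 and 12.0 at 12 h on soft, and 9.16 and 9.86, then 7.63 and 8.92, then 9.50 and 9.56 on stiff. The groups of 0 h and 12 h overlapped on both substrates. Its 12 h changes were -0.04 ± 0.15 and -0.00072 ± 0.16 (adjusted p = 0.87 and 0.997). The lower value at 2 h on soft, -0.51 ± 0.16, did not pass (adjusted p = 0.12).

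*Cyp26a1*, the breakdown enzyme whose promoter is shown above, was listed at between 0 and 14 counts in each library. It had 3 and 3 counts at 0 h, then 5 and 4 at 2 h, then 6 and 6 at 12 h on soft after PD03 removal, and 1 and 2, then 14 and 4, then 8 and 6 on stiff. After CHIRON removal it had 7 and 0, then 4 and 6, then 4 and 5 on soft, and 3 and 8, then 2, then 6 and 3 on stiff. The PD03 counts of 12 h were above those of 0 h on both substrates and the CHIRON counts overlapped. It was too low to be tested in either experiment. The filter of the fit across both passed genes on 1 library. The highest count of *Cyp26a1*, 14, was in stiff 2 h after PD03 removal, a group outside the 12 h contrasts. In that fit its responses at 12 h differed between the removals by 0.71 ± 1.33 on soft and 2.91 ± 1.34 on stiff. Neither passed (adjusted p = 0.77 and 0.12), and both rest on few counts.

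At 2 h few of the 9 genes were called. After PD03 removal edgeR called 0 of 8 on soft (1.96% of all genes), with 3 at an unadjusted p under 0.05 and 0 by DESeq2, and on stiff 1 of 8, *Rarg* (2.73% of all genes), with 0 by DESeq2. After CHIRON removal it called 0 of 7 on soft (0.226%) and 0 of 7 on stiff (0.103%), with 2 at an unadjusted p under 0.05 on each and 0 by DESeq2.

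Few of these genes were called between substrates. For soft against stiff after PD03 removal edgeR called 0 of 8 at 0 h (0.0298% of all genes) and 0 of 8 at 2 h (0.134%), with 2 and 1 at an unadjusted p under 0.05 and 0 by DESeq2. The responses of soft and stiff to PD03 removal differed for 0 of 8 at 2 h (0.00745%) and 0 of 8 at 12 h (0.0%), with 2 at an unadjusted p under 0.05 at each time. After CHIRON removal 0 of 7 were called between substrates at 0 h, 2 h and 12 h (0.0% of all genes at each time), with 0, 1 and 0 at an unadjusted p under 0.05, and 0 for the difference in response at 2 h and 12 h (0.0% and 0.0%), with 1 and 0. DESeq2 called 0 in each of these. The SEs of these differences were at most 0.24 for *Rarg*, *Rara*, *Rxra* and *Dhrs3*, and larger for the genes with few counts.

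Compared directly, the responses to the 2 removals differed at 12 h in 1 of 9 genes on soft (21.0% of all 14763 genes) and in 2 of 9 on stiff (23.5%). The 9 include *Cyp26a1*, too low to be tested in either experiment, and *Stra6*, too low after CHIRON removal. For *Dhrs3* the change after PD03 removal minus that after CHIRON removal was -1.38 ± 0.21 on soft (adjusted p = 1.6e-05) and -1.48 ± 0.22 on stiff (adjusted p = 8.4e-06), which holds for every fit with 1 library left out. *Rarb* fell less after PD03 removal by 0.90 ± 0.32 on stiff (adjusted p = 0.039) and by 0.79 ± 0.31 on soft, where it did not pass (adjusted p = 0.071). The call on stiff was lost without either replicate of stiff 0 h or stiff 12 h after PD03 removal or without replicate 2 of stiff 0 h or stiff 12 h after CHIRON removal, with values from 0.35 (adjusted p = 0.36, without replicate 2 of stiff 12 h after CHIRON removal) to 0.98. Without replicate 1 of that group it was 1.88 (adjusted p = 8.2e-05). At 2 h edgeR called 0 of 9 on soft (0.813%) and 0 of 9 on stiff (0.779%), with 2 and 1 at an unadjusted p under 0.05 and 0 by DESeq2.

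Of a list of 48 other genes of the pathway, 33 were tested after PD03 removal and 37 after CHIRON removal. At 12 h after PD03 removal 8 rose and 7 fell on soft, where 14.1% and 15.3% of all genes were called, and 9 rose and 6 fell on stiff (18.5% and 19.9% of all genes), 12 of them in the same direction on both. After CHIRON removal 1 rose and 4 fell on each substrate, 4 of them on both, where 9.18% and 8.63% of all genes were called on soft and 8.46% and 8.33% on stiff. The medians of the list were 0.08 and 0.01 after PD03 removal and -0.02 and 0.01 after CHIRON removal, near those of all genes.

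Among enzymes that form retinoic acid, *Aldh1a2* changed most after PD03 removal. It fell from 9.32 and 11.5 normalised CPM at 0 h to 3.09 and 3.13 at 12 h on soft, and from 8.96 and 7.90 to 1.58 and 2.64 on stiff, with no overlap. The log2 fold changes were -1.74 ± 0.19 (adjusted p = 3.9e-08) and -2.01 ± 0.22 (adjusted p = 1.9e-08). After CHIRON removal it held between 1.23 and 2.66 at 0 h and 12 h and changed by -0.02 ± 0.37 and -0.67 ± 0.39 (adjusted p = 0.98 and 0.28). The responses differed by -1.72 ± 0.38 on soft (adjusted p = 0.0016) and -1.34 ± 0.43 on stiff (adjusted p = 0.024). The call on stiff was lost without replicate 1 of stiff 0 h or 12 h after PD03 removal, or without replicate 2 of stiff 0 h or either replicate of stiff 12 h after CHIRON removal, with adjusted p up to 0.14. *Aldh1a3*, the other tested gene of this role, was called at 12 h in neither experiment, at -0.90 ± 0.35 on soft (adjusted p = 0.052) and -0.26 ± 0.37 on stiff (adjusted p = 0.62) after PD03 removal. Its responses to the removals differed by -1.08 ± 0.37 on soft (adjusted p = 0.039) and were not called as different on stiff. Of the enzymes of retinol storage and of retinaldehyde, 10 were tested after PD03 removal. On soft 0 rose and 3 fell (14.1% and 15.3% of all genes), and on stiff 0 rose and 2 fell (18.5% and 19.9%). After CHIRON removal 12 were tested. On soft 0 rose and 0 fell (9.18% and 8.63% of all genes), and on stiff 0 rose and 1 fell (8.46% and 8.33%).

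Of the other binding proteins, *Fabp5*, which also binds retinoic acid, fell after PD03 removal by -0.54 ± 0.18 on soft and -0.65 ± 0.18 on stiff (adjusted p = 0.023 and 0.0051). Its call was lost without any 1 of the 4 soft libraries of 0 h and 12 h, or on stiff without replicate 2 of 12 h (adjusted p up to 0.14 and 0.069). None of the 3 binding proteins tested after CHIRON removal was called on soft (9.18% of all genes higher and 8.63% lower) or on stiff (8.46% and 8.33%). Among cofactors, *Nrip1*, a corepressor that retinoic acid is known to induce, fell after CHIRON removal by -0.44 ± 0.12 and -0.39 ± 0.12 (adjusted p = 0.016 and 0.033). These calls were lost without replicate 2 of soft 0 h or 12 h (adjusted p up to 0.17), and without replicate 2 of stiff 0 h or either replicate of stiff 12 h (adjusted p up to 0.35). *Rxrb*, a further RXR gene, rose after PD03 removal by 0.29 on soft (adjusted p = 0.004) and 0.23 on stiff (adjusted p = 0.016).

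**Figure D4:**
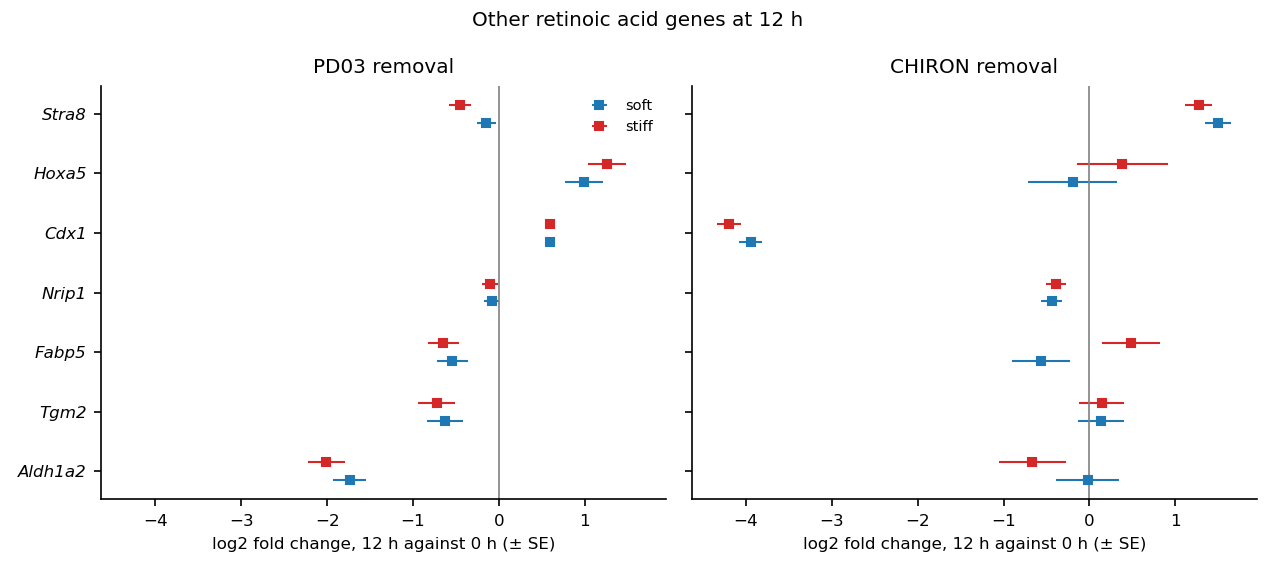
Log2 fold changes at 12 h against 0 h (± SE) of 7 other pathway genes with changes called on both substrates of an experiment, after PD03 removal (left) and CHIRON removal (right), on soft in blue and stiff in red. *Aldh1a2* is lowest on the left at -1.74 and -2.01, and *Cdx1* is above 0 on the left and at -3.94 and -4.20 on the right.

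The genes known to be induced by retinoic acid did not move together. After PD03 removal 3 of 10 tested rose and 2 fell on soft (14.1% and 15.3% of all genes), and 4 rose and 2 fell on stiff (18.5% and 19.9%). After CHIRON removal 1 of 12 rose and 3 fell on soft (9.18% and 8.63% of all genes), and 1 rose and 2 fell on stiff (8.46% and 8.33%). *Cdx1*, a homeobox gene that also answers to Wnt signals, rose from 143 and 148 normalised CPM to 213 and 229 on soft after PD03 removal (0.60 ± 0.06, adjusted p = 2.5e-09). It fell from 170.0 and 168 to 8.88 and 13.7 on soft after CHIRON removal (-3.94 ± 0.13, adjusted p = 1.2e-12). Its values on stiff were 0.59 ± 0.06 and -4.20 ± 0.14 (adjusted p = 1.5e-09 and 1.1e-12). Its responses to the removals differed by 4.55 ± 0.14 on soft and 4.79 ± 0.15 on stiff (adjusted p = 1.5e-18 and 8.9e-19).

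*Stra8*, a germ cell gene named for its induction by retinoic acid, rose after CHIRON removal from 6.40 and 7.63 to 19.8 and 20.04 on soft and from 6.29 and 7.72 to 16.9 and 17.1 on stiff (1.502 ± 0.15 and 1.28 ± 0.16, adjusted p = 1.6e-06 and 1.4e-05). After PD03 removal it changed by -0.15 ± 0.11 on soft (adjusted p = 0.36) and fell by -0.45 ± 0.13 on stiff (adjusted p = 0.005), or 0.053 without replicate 2 of stiff 12 h. At that time it was higher on soft than on stiff by 0.59 ± 0.13 (adjusted p = 0.015), a call lost without any 1 of the 4 libraries compared (adjusted p up to 0.22). *Hoxa5* rose after PD03 removal by 0.99 ± 0.23 and 1.26 ± 0.22 (adjusted p = 0.0013 and 4.7e-05). *Tgm2*, the gene of transglutaminase 2, fell by -0.63 ± 0.21 and -0.73 ± 0.22 (adjusted p = 0.023 and 0.0096), with the calls lost without any 1 of the soft libraries of 0 h and 12 h (adjusted p up to 0.15), and without replicate 2 of stiff 0 h or either replicate of stiff 12 h (adjusted p up to 0.084).

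Few of the 31 genes whose promoters held the repeat with 5 bases between its hexamers had enough counts to be tested. After PD03 removal 7 of them were tested at 12 h, of which 0 rose and 2, *Rarb* and *Syndig1*, fell on each substrate, beside the 15.3% of all genes called lower on soft and 19.9% on stiff. After CHIRON removal 8 were tested, of which 2 rose and 1 fell on soft (9.18% and 8.63% of all genes) and 1 rose and 2 fell on stiff (8.46% and 8.33%).

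Described over the 23 libraries after the mean of each experiment was subtracted, the pattern of *Rarg* was most like those of *Myrf* (Pearson r = 0.984), *Itga3* (0.982) and *Fam129b* (0.967) among 13160 genes. *Rara* was most like *Men1* (0.957), *Pbx2* (0.949) and *Gse1* (0.949), *Rarb* most like *Nme1* (0.935), *Lad1* (0.922) and *Trim24* (0.917), and *Dhrs3* most like *Itpr3* (0.938), *Map7* (0.934) and *Rbfox2* (0.928). Between members, *Rarg* and *Rara* had r = 0.912, *Rarg* and *Rarb* -0.797, and *Dhrs3* and *Rarb* -0.778. For *Rxra*, *Crabp1* and *Crabp2* the highest values were lower, at 0.833 with *Ccne1*, 0.771 with *Csnk1d* and 0.779 with *Mdfi*. The libraries of a group share their time and substrate, so these values are descriptions of 12 groups rather than of 23 independent samples.

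The label of the cells as mESCs was checked on markers. The summed level of 10 markers listed for naive pluripotent cells was between 5213 and 7934 normalised CPM in every library, whereas 8 primitive endoderm markers summed to between 4.06 and 17.6 and 5 fibroblast markers to between 8.61 and 27.1. The 10 include *Pou5f1*, which the study treats as a marker of general pluripotency, so their sum is not specific to the naive state. *Mesp1* was listed at 0 in 8 of the 12 libraries of PD03 removal and 10 of the 11 of CHIRON removal. After PD03 removal the naive markers went from between 7632 and 7833 at 0 h to between 6064 and 6516 at 12 h. Of the 10, 8 were called lower on each substrate, beside 15.3% of all genes on soft and 19.9% on stiff. The sum of 4 markers of mesoderm and primitive streak went from between 16.2 and 21.9 to between 36.1 and 43.7. Of these 4, 3 were tested and 1 was called higher on each substrate (14.1% of all genes on soft and 18.5% on stiff). *T* spanned 10.4 to 36.7 over the 12 libraries while *Kdr* spanned 4.82 to 10.6 and *Mixl1* stayed at or below 0.989. After CHIRON removal the naive sum ran from 5425 to 5722 at 0 h, then from 5428 to 5702 at 12 h. Of its 10 genes, however, 3 were called higher and 3 lower on soft (9.18% and 8.63% of all genes). On stiff 6 were called higher and 3 lower (8.46% and 8.33%). The sum of 4 neuroectoderm markers went from between 34.0 and 39.2 to between 74.4 and 81.0. The 7 trophectoderm markers summed to between 71.9 and 109 in all libraries. In bulk RNA, fewer cells of a type and less RNA per cell cannot be told apart, and the part of these shifts in the changes at 12 h was not tested.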

How the data were processed

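RNA-seq counts per gene of 23 of 24 libraries were used. The deposited counts were made by the authors with Trim Galore, TopHat2 2.1.0 against mm10 (GRCm38) and featureCounts 1.5.0 with Ensembl release 86, as named in the submitters' processing notes and the methods, without normalisation. The strand setting was not given in the sources used here. A further 12 columns of other samples were not used.

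Protein-coding genes (GENCODE M21) were filtered with filterByExpr (minimum count 10, minimum total count 15), normalised by TMM and fitted by the quasi-likelihood test of edgeR 4.0.16 in R 4.3.3, with all 6 groups of an experiment in 1 model and both experiments in 1 model for differences between removals. Since 1 group of CHIRON removal is a single library, its filter and that of the joint model passed genes on 1 library. Adjusted p-values (Benjamini-Hochberg) cover all genes tested. Counts of replicates differed by more than sampling noise (chi-square over its degrees of freedom, 2.24 to 19.7), so each was kept as its own sample.

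Other pathway genes were named by rule, up to 8 per experiment with the largest mean change at 12 h among those called in 1 direction on both substrates. Some genes that this rule names are not reported here. *Rxrb*, *Aldh1a3* and *Syndig1* were named after their values were seen. The 9 genes and all lists were chosen with earlier results of these data known. Alternatives were DESeq2 1.42.0 or its size factors, no filter, all genes, only the groups compared, a replicate block, the discarded library, each library left out and, chosen after seeing the data, a filter on 2 libraries. Scripts were tested on simulated data.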

Additional observations from a re-analysis of the deposited data

Results flagged for a closer look

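*Dhrs3* responded differently to the removals at 12 h by a log2 difference (PD03 minus CHIRON) of -1.38 on soft substrates and -1.48 on stiff, and *Rarb* by 0.90 on stiff, each past the test of the difference itself. The difference of *Rarb* did not pass on soft. On stiff its call was lost in several fits that each left out 1 library, with values down to 0.35, and its reads may include those of *Top2b*. The discarded library of CHIRON removal (stiff, 2 h) differed in make-up as well as depth. Protein-coding genes held 56.7% of its counts, against 78.0% to 85.3% in the other 11 libraries of that experiment. In the discarded library, *Dhrs3* had 8 of 171333 counts, which is 46.7 CPM of all counts (95% exact Poisson interval 20.2 to 92.0, counting error only), where the highest library of 0 h in that experiment had 5.74. *Stra6* had 2 counts there, or 11.7 CPM (1.41 to 42.2), where the highest library of 0 h had 0.157. *Rarg*, *Rarb*, *Cyp26a1*, *Crabp1* and *Crabp2* had 0 counts in it, which allows up to 21.5 CPM by the same interval, where the highest library of 0 h had 100.8 CPM of *Rarg*, 6.22 of *Rarb*, 0.353 of *Cyp26a1*, 2.28 of *Crabp1* and 0.964 of *Crabp2*. *Rara* had 1 count, or 5.84 CPM (0.148 to 32.5), where the highest library of 0 h had 52.2, and *Rxra* had 2 counts, or 11.7 CPM (1.41 to 42.2), where it had 30.01.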

How the results depend on the processing

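Many of the counts of the 9 genes called per comparison were 0, and a 0 that stayed 0 was taken as within 1.5 times the reported count. The fits without 1 library also left out libraries that a comparison did not use. On that basis 411 recomputed counts stayed within 1.5 times the reported count, 38 did not, and no direction reversed. The exceptions were at 2 h after PD03 removal, where soft went from 0 to 1 without the low-count filter (0 to 1 with each library left out) and stiff from 1 to 0 with DESeq2, without the filter, with all genes or with only the groups compared (0 to 1 with each library left out). Soft against stiff at 12 h after PD03 removal ranged from 0 to 1 with each library left out. With the discarded library included, the calls at 12 h after CHIRON removal went from 4 to 1 on soft and from 4 to 1 on stiff, leaving *Dhrs3*, while the fold change of *Rarg* stayed between 1.02 and 1.04 and its adjusted p rose to 0.86. For differences between the removals, 12 h soft went from 1 to 2 with DESeq2, with its size factors or without the filter (1 to 2 with each library left out), and 2 h soft ranged from 0 to 1. At 12 h on stiff the count went from 2 to 1 with all genes, with the discarded library and with each library left out (1 to 3, the 3 without replicate 2 of soft 12 h after CHIRON removal). Replicate numbers did not pair the samples, since samples with the same number had deviations correlated by -0.0028 on average after PD03 removal and -0.020 after CHIRON removal. The replicate block took the 12 h stiff difference between removals from 2 to 1 and moved no other of these counts. The filter on 2 libraries, chosen after seeing the data, moved none. Over all genes, counts moved more, as for 12 h soft after CHIRON removal, from 2603 to 457 at the lowest. The causes were not tested. *Cyp26a1*, *Stra6* and *Crabp2* are limited by their few counts, and changes the size of that of *Rxra* by 2 replicates a group.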
